A study of Mus musculus with 12 samples.

Results

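The transforming growth factor-β (TGF-β) signalling core comprised 10 genes in the RNA-seq table of *Ddx5*-depleted ATDC5 cells: the ligands *Tgfb1*, *Tgfb2* and *Tgfb3*, the receptors *Tgfbr1*, *Tgfbr2* and *Tgfbr3*, the signal transducers *Smad2*, *Smad3* and *Smad4*, and *Tgfbi*, a matrix gene named for its induction by TGF-β. The genes were chosen by symbol, and all 10 were found among the 46731 genes of the table. All 10 also passed the filter on low values, set at 1 FPKM (fragments scaled to gene length and library depth) in no fewer than 3 libraries, which 12368 genes passed.

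TGF-β ligands are secreted in a latent complex and, once freed, bind the type II receptor TGFBR2, which phosphorylates the type I receptor TGFBR1. TGFBR1 phosphorylates SMAD2 and SMAD3, and these enter the nucleus with SMAD4 to regulate transcription, while the co-receptor betaglycan (*Tgfbr3*) presents ligand to the receptors. In cartilage the pathway is known both for supporting chondrocyte differentiation and for its part in fibrosis.

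ATDC5 is a mouse teratocarcinoma line that can be differentiated towards cartilage. The groups shRNA-NC, which carried a control hairpin, and shRNA-*Ddx5*, which carried a hairpin against the RNA helicase gene *Ddx5*, were stable lines made with lentivirus from a U6 promoter under puromycin selection, so every library carried a vector. Each line was collected at 6 h without stimulation (medium) or with IL-1β at 5 ng/ml and TNF-α at 25 ng/ml (cytokines), with 3 libraries in each of the 4 groups, which the study describes as independent experiments. The knockdown rested on 1 line per hairpin, so that hairpin and line cannot be told apart. These are bulk libraries, in which fewer cells of a type and less RNA per cell cannot be told apart.

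Between 14119199 and 19276520 fragments lay on genes in each library. *Ddx5* in shRNA-*Ddx5* cells was at 0.323 times its shRNA-NC level in medium and at 0.321 times with cytokines. The second shRNA-NC library with cytokines stood nearer to the shRNA-*Ddx5* libraries with cytokines (correlation of log2 values 0.961 with each) than the other two did (0.935 to 0.952). Several of the results that this library moves, but not all, are given with and without it. Of the chondrogenic markers, *Sox9* was present in every group, with means of 27.5 FPKM (shRNA-NC) and 24.1 FPKM (shRNA-*Ddx5*) in medium and of 8.76 and 5.40 FPKM with cytokines, whereas *Acan*, the gene of aggrecan, reached at most 4 fragments. All 12 chondrogenic markers summed in medium to between 40.2 and 45.3 FPKM (shRNA-NC) and between 31.8 and 34.3 (shRNA-*Ddx5*), and under cytokines to between 13.3 and 18.4 and between 11.8 and 12.2. The sum joins members whose means differed in opposite directions, which were not tested here: in medium the mean of *Col2a1* was 12.4 FPKM in shRNA-NC and 0.899 in shRNA-*Ddx5* cells, that of *Col11a1* 0.897 and 4.78, and that of *Sox6* 0.171 and 0.914. The 5 markers of hypertrophic chondrocytes summed to between 0.793 and 1.40 FPKM in shRNA-NC and between 15.8 and 19.1 in shRNA-*Ddx5* cells in medium, and to between 0.0896 and 1.57 and between 12.9 and 15.5 with cytokines. Most of this sum was *Alpl*, with means of 0.789 (shRNA-NC) and 15.3 FPKM (shRNA-*Ddx5*) in medium and of 0.391 and 12.4 with cytokines. The means in medium were 0.0984 and 1.64 for *Pth1r*, 0.0281 and 0.508 for *Ibsp*, 0.0384 and 0.248 for *Col10a1* and 0.0430 and 0.0326 for *Ihh*. These marker sums moved with the knockdown or the cytokines as genes described here did, and their part in those results was not tested. The pluripotency markers *Pou5f1* and *Zfp42*, the leukocyte marker *Ptprc*, the endothelial *Cdh5* and the epithelial *Epcam* had no fragment in any library. Other members of these lists were present. The pluripotency marker *Sox2* had means of 12.3 (shRNA-NC) and 16.5 FPKM (shRNA-*Ddx5*) in medium and of 5.26 and 4.87 with cytokines. *Nanog*, of the same list, had at most 22 fragments, and the leukocyte marker *Cd68* had between 20 and 49. The endothelial and epithelial lists summed to at most 0.151 and 0.116 FPKM. The 6 fibroblast markers summed to between 1000.0 and 1861 FPKM over all libraries, nearly all of it *S100a4*, while *Thy1* had at most 3 fragments. Some less abundant members of that list had higher means in shRNA-*Ddx5* cells, *Dcn* at 0.0289 against 0.940 FPKM in medium and 0.146 against 4.55 with cytokines, and with cytokines *Lum* at 0.166 against 0.793 and *Pdgfra* at 1.35 against 2.50. In medium *Pdgfra* was lower in shRNA-*Ddx5* cells, at 0.644 against 0.578. The shRNA-NC libraries with cytokines ran from 0 to 0.381 FPKM for *Dcn* and from 0 to 0.412 for *Lum*.

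The sequence upstream of the start site is shown for *Tgfb1*, *Tgfb2* and *Tgfbi*, which were higher in every shRNA-*Ddx5* library than in every shRNA-NC library of the same medium, and for *Smad3*, which was lower in every one. RefSeq windows (GRCm38.p6) were matched by symbol for 6 of the 10 genes, the others being *Tgfbr1*, with 2 start sites, and *Tgfbr2*. The 250 bases before the start are printed 5′ to 3′ on the strand of the gene. Capitals mark, on either strand, GGGCGG (the GC box of Sp1 factors), TATAAA (the TATA box) and CAGAC (the core that SMAD3 and SMAD4 bind).
Tgfb1 (chr7:25686752-25687001, plus strand): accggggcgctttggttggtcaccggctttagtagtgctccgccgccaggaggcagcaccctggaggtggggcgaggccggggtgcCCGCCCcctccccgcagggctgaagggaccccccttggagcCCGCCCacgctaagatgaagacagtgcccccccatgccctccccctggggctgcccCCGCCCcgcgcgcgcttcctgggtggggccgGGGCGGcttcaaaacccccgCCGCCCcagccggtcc
Tgfb2 (chr1:186705990-186706239, minus strand): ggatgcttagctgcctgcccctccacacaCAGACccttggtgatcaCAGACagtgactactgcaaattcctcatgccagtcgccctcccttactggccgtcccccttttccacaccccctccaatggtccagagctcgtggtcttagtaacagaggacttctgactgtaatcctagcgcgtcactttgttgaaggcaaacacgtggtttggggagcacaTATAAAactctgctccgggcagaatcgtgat
Tgfbi (chr13:56609336-56609585, plus strand): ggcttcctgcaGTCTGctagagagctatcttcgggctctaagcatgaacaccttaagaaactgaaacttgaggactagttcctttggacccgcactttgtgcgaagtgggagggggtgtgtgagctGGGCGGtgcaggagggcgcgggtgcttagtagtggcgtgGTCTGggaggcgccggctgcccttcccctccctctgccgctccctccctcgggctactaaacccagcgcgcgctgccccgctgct
Smad3 (chr9:63757995-63758244, minus strand): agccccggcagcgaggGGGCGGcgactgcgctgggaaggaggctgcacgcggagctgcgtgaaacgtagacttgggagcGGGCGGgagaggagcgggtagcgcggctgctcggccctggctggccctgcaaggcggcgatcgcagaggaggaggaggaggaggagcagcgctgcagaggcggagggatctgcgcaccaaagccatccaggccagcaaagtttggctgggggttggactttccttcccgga
The *Tgfb1* window held 5 copies of GGGCGG and neither other motif, and 75.2% of its bases were G or C, more than in 96.1% of all 32851 windows. The *Tgfb2* window held no GGGCGG, 1 TATAAA and 2 copies of CAGAC, and 53.6% of its bases were G or C. The *Tgfbi* window held 1 GGGCGG and 2 copies of CAGAC, and the *Smad3* window held 2 copies of GGGCGG only. A further motif, 4 runs of GGG parted by 1 to 7 bases and here not capitalised since it can overlap GGGCGG, was present in the window of *Tgfb1* on the minus strand, in the first *Tgfbr1* window and in that of *Tgfbr2*, and not in those of *Tgfb2*, *Tgfbi* or *Smad3*. Of all windows of this length, 32.7% held GGGCGG, 12.4% TATAAA, 42.2% CAGAC and 16.6% the G-run motif. Genes with the same direction of change thus had windows of different make-up.

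*Tgfb1*, the most widely expressed of the ligands (gene 21803, chromosome 7 from 25386406 to 25404503 on GRCm39, as are all gene positions here), had, in medium, 3.64, 3.45 and 2.88 FPKM in the control libraries and 11.8, 9.76 and 9.55 FPKM in the shRNA-*Ddx5* libraries. With cytokines it had 3.52, 8.09 and 3.61 FPKM in shRNA-NC and 9.52, 10.8 and 8.56 in shRNA-*Ddx5* cells. Every shRNA-*Ddx5* library was above every shRNA-NC library in the same medium, and among the control libraries with cytokines the second stood apart. The mean rose 3.12-fold in medium, from 3.32 ± 0.399 to 10.4 ± 1.27 FPKM (SD, n = 3), a log2 difference of 1.39 ± 0.23 (SE, on log2(FPKM + 1), as are all log2 values) with an adjusted p of 0.000476 by limma. With cytokines it rose 1.90-fold, a log2 difference of 0.88 ± 0.23 (adjusted p = 0.00769), and without the second shRNA-NC library 1.22 (adjusted p = 4.8e-05). Cytokines moved *Tgfb1* by 0.41 in shRNA-NC cells (adjusted p = 0.181) and by 0.08 without that library, and by -0.10 in shRNA-*Ddx5* cells (adjusted p = 0.789), none of which passed the threshold of 0.05. In the order of the 4 groups the neighbours shRNA-NC in medium and with cytokines overlapped, as did the 2 shRNA-*Ddx5* groups, so that the levels separated by hairpin.

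*Tgfb2* (gene 21808, chromosome 1 from 186354984 to 186441504), the isoform whose binding to the receptors depends most on betaglycan, was the lowest of the ligands in the control cells. Its FPKM was 1.67, 1.65 and 2.73 in shRNA-NC and 4.59, 5.30 and 6.07 in shRNA-*Ddx5* cells in medium. With cytokines it was 3.44, 3.43 and 2.66 in shRNA-NC and 3.81, 3.79 and 3.60 in shRNA-*Ddx5* cells. Both pairs of groups were free of overlap, but the gap was wide in medium and narrow with cytokines. The knockdown raised the mean 2.64-fold in medium (log2 difference 1.08 ± 0.14, adjusted p = 0.000119), whereas with cytokines the difference was 0.19 (95% confidence interval -0.13 to 0.50, adjusted p = 0.311). The 2 knockdown effects differed by -0.90 ± 0.20 (interaction, adjusted p = 0.0196). This interaction missed the threshold without shRNA-NC medium replicate 2, shRNA-*Ddx5* medium replicate 3 or shRNA-*Ddx5* cytokine replicate 3 (values from -0.87 to -0.81, adjusted p = 0.0543 to 0.0573). Cytokines raised *Tgfb2* in shRNA-NC cells by 0.48 ± 0.14 (adjusted p = 0.0217), although the libraries overlapped, and the call was lost without either of the first 2 libraries of either shRNA-NC group (0.40 to 0.44, adjusted p = 0.0655 to 0.0845), without a filter on low values (adjusted p = 0.0542) or with only the libraries compared in the fit (adjusted p = 0.0723). In shRNA-*Ddx5* cells the difference was -0.41 (adjusted p = 0.0519), and it passed without shRNA-NC medium replicate 3 (adjusted p = 0.0146) or shRNA-*Ddx5* medium replicate 1 (-0.50, adjusted p = 0.0338), and under 4 other settings (adjusted p = 0.0222 to 0.0471).

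*Tgfb3* (gene 21809, chromosome 12 from 86103517 to 86125815), the third ligand, was the highest of them in control cells in medium. Its FPKM was 9.02, 9.11 and 6.68 in shRNA-NC and 8.19, 6.33 and 7.62 in shRNA-*Ddx5* cells in medium, and 4.64, 5.31 and 6.22 and 4.52, 3.73 and 3.81 with cytokines. All cytokine libraries lay below all medium libraries of the same line. Cytokines lowered it to 0.652 times the medium mean in shRNA-NC cells (log2 difference -0.53 ± 0.14, adjusted p = 0.0112) and to 0.545 times in shRNA-*Ddx5* cells (-0.74 ± 0.14, adjusted p = 0.00199). The knockdown gave -0.14 in medium, with overlapping libraries, and -0.34 with cytokines (adjusted p = 0.0585), where the libraries did not overlap. The latter passed the threshold without shRNA-NC medium replicate 3 (adjusted p = 0.0299) or shRNA-NC cytokine replicate 1 (-0.43, adjusted p = 0.0371), after scaling to summed fragments (-0.39, adjusted p = 0.0397) and with only the libraries compared in the fit (adjusted p = 0.0433).

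The make-up of the ligand mRNAs therefore differed between the groups. *Tgfb3* made up 60.5% ± 5.30 (SD, n = 3) of the summed FPKM of the ligands in shRNA-NC cells in medium, 31.9% ± 1.99 in shRNA-*Ddx5* cells in medium, 40.5% ± 9.14 in shRNA-NC cells with cytokines and 23.2% ± 2.57 in shRNA-*Ddx5* cells with cytokines. The share of *Tgfb1* was 24.4% ± 1.01, 44.9% ± 3.57, 35.8% ± 10.7 and 55.3% ± 3.22 in the same order. Without the second shRNA-NC library with cytokines the *Tgfb1* share in that group was 29.6% rather than 35.8%. The *Tgfb3* share was then 44.9% rather than 40.5%, and that of *Tgfb2* 25.5% rather than 23.8%. *Tgfb2* held between 15.1% and 23.8% in the means of the 4 groups. The summed level was 13.6 ± 1.14 FPKM in shRNA-NC and 23.1 ± 1.62 in shRNA-*Ddx5* cells in medium, and 13.6 ± 2.80 and 17.4 ± 1.27 with cytokines. In shRNA-NC cells with cytokines the second library summed to 16.8 FPKM and the others to 11.6 and 12.5.

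**Figure D1:**
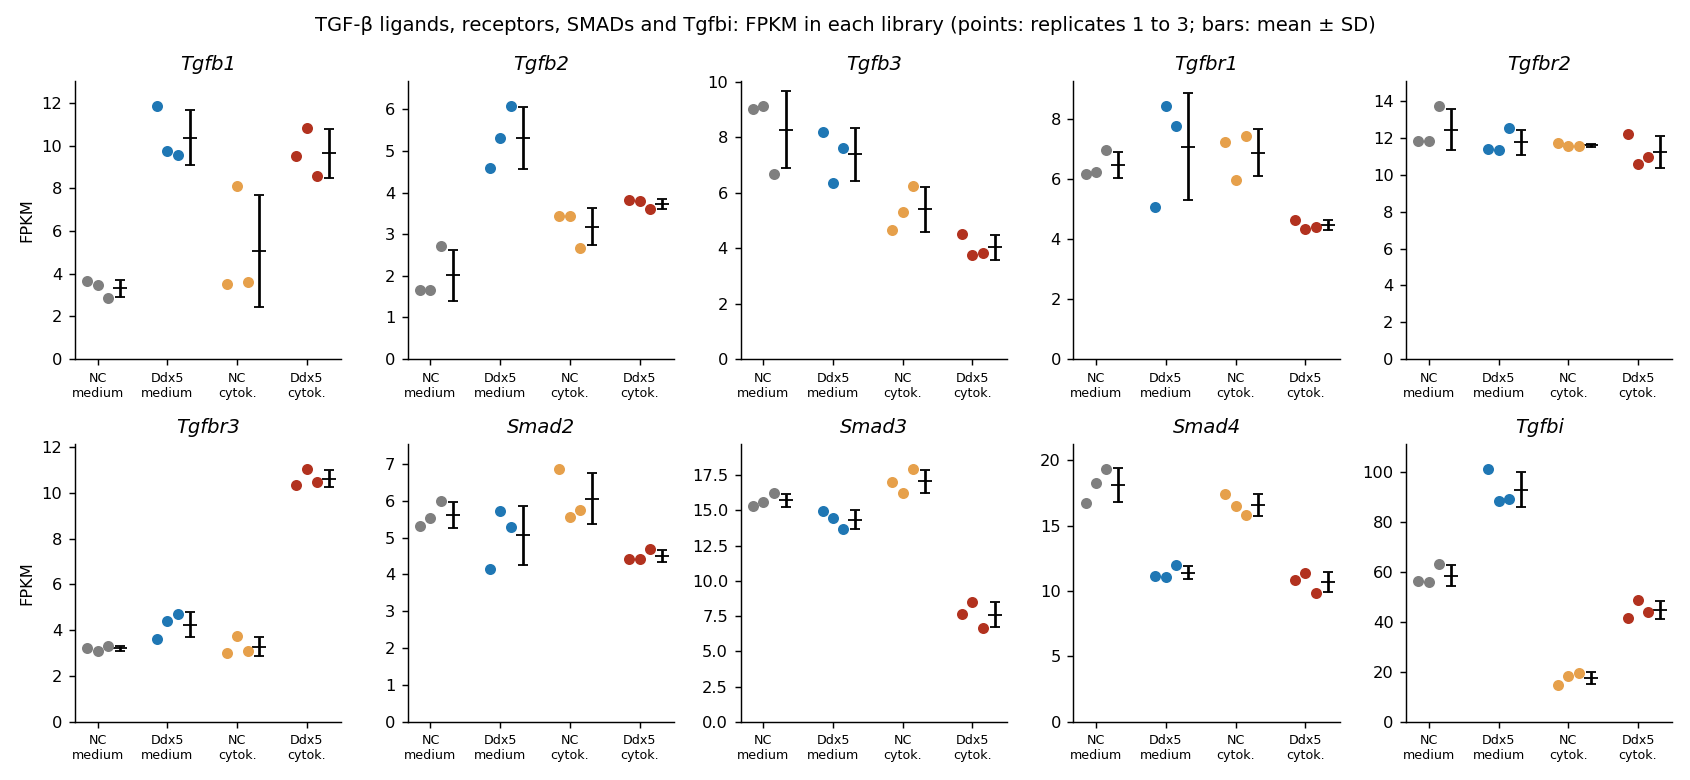
FPKM (vertical axes, linear from 0) of the 10 genes in each of the 12 libraries, by group on the horizontal axis, with points for replicates 1 to 3 and bars for the mean ± SD. *Tgfb1* lies at 2.88 to 3.64 FPKM in shRNA-NC and 8.56 to 11.8 in shRNA-*Ddx5* libraries except for 1 shRNA-NC library with cytokines at 8.09, and *Tgfbr3* is at 10.3 to 11.04 in shRNA-*Ddx5* cells with cytokines and below 5 FPKM elsewhere.

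Among the receptors, the type II receptor *Tgfbr2* (gene 21813, chromosome 9 from 115916763 to 116004431) had the highest mean in every group, and its group means differed least. Its FPKM was 11.8, 11.8 and 13.7 in shRNA-NC and 11.4, 11.3 and 12.5 in shRNA-*Ddx5* cells in medium, and 11.7, 11.6 and 11.6 and 12.2, 10.6 and 10.9 with cytokines. All neighbours in the order of the group means overlapped, and the shRNA-NC libraries with cytokines lay just below the shRNA-NC libraries in medium. The log2 differences of the 4 comparisons lay between -0.09 and -0.04, with confidence intervals that reached no further than -0.27 to 0.14, and none passed the threshold.

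*Tgfbr3*, the co-receptor betaglycan (gene 21814, chromosome 5 from 107254433 to 107437495), had 3.20, 3.09 and 3.31 FPKM in shRNA-NC and 3.63, 4.38 and 4.70 in shRNA-*Ddx5* cells in medium. With cytokines it had 3.01, 3.76 and 3.08 FPKM in shRNA-NC and 10.3, 11.04 and 10.5 in shRNA-*Ddx5* cells. Only the shRNA-*Ddx5* cells with cytokines stood far from the other groups, and none of their libraries overlapped with any other. The knockdown raised *Tgfbr3* 3.23-fold with cytokines (log2 difference 1.44 ± 0.10, adjusted p = 1.23e-06) and 1.32-fold in medium (0.31 ± 0.10, adjusted p = 0.0193). The call in medium was lost without shRNA-NC medium replicate 2 (0.29, adjusted p = 0.0615) or shRNA-*Ddx5* medium replicate 2 (0.29, adjusted p = 0.0516) or 3 (0.25, adjusted p = 0.0840), after scaling to summed fragments (0.24, adjusted p = 0.0783), and when only the libraries compared were fitted (adjusted p = 0.0554). Cytokines raised *Tgfbr3* 2.50-fold in shRNA-*Ddx5* cells (1.15 ± 0.10, adjusted p = 4.03e-06), and in shRNA-NC cells the difference was 0.02 (95% confidence interval -0.19 to 0.24, adjusted p = 0.865), of which the sign turned without the second cytokine library (-0.05) or after scaling to summed fragments (-0.04). The interaction was 1.13 ± 0.14 (adjusted p = 0.000626).

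*Tgfbr1*, the type I receptor kinase (gene 21812, chromosome 4 from 47353222 to 47414926), had 6.17, 6.25 and 6.99 FPKM in shRNA-NC and 5.06, 8.43 and 7.77 in shRNA-*Ddx5* cells in medium. With cytokines it had 7.25, 5.98 and 7.43 FPKM in shRNA-NC and 4.64, 4.35 and 4.40 in shRNA-*Ddx5* cells. The shRNA-*Ddx5* libraries with cytokines were the lowest, below all others, and the first shRNA-*Ddx5* library in medium was low within its group. With cytokines the knockdown lowered *Tgfbr1* to 0.649 times the control (log2 difference -0.52 ± 0.15, adjusted p = 0.0124). In medium the difference was 0.09 (adjusted p = 0.645), which became 0.29 (adjusted p = 0.0405) without shRNA-*Ddx5* replicate 1 and -0.03 (adjusted p = 0.870) without replicate 2. Cytokines lowered it in shRNA-*Ddx5* cells (-0.54 ± 0.15, adjusted p = 0.0178), a call lost without replicate 2 or 3 of either shRNA-*Ddx5* group (-0.53 to -0.42, adjusted p = 0.0536 to 0.0766), and moved it by 0.07 in shRNA-NC cells (adjusted p = 0.722). The interaction was -0.61 (adjusted p = 0.0959), and -0.81 (adjusted p = 0.00588) without shRNA-*Ddx5* medium replicate 1.

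As shares of the summed receptor FPKM, *Tgfbr3* held 14.5% ± 0.667 (SD, n = 3) in shRNA-NC and 18.3% ± 0.391 in shRNA-*Ddx5* cells in medium, and 15.1% ± 2.20 and 40.3% ± 2.26 with cytokines. *Tgfbr1* held 29.2%, 30.4%, 31.6% and 17.0% in the same order. In the shRNA-*Ddx5* cells with cytokines the co-receptor was the more abundant per length, at 10.6 against 4.46 FPKM for the type I receptor, and in the other groups it was the less abundant.

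**Figure D2:**
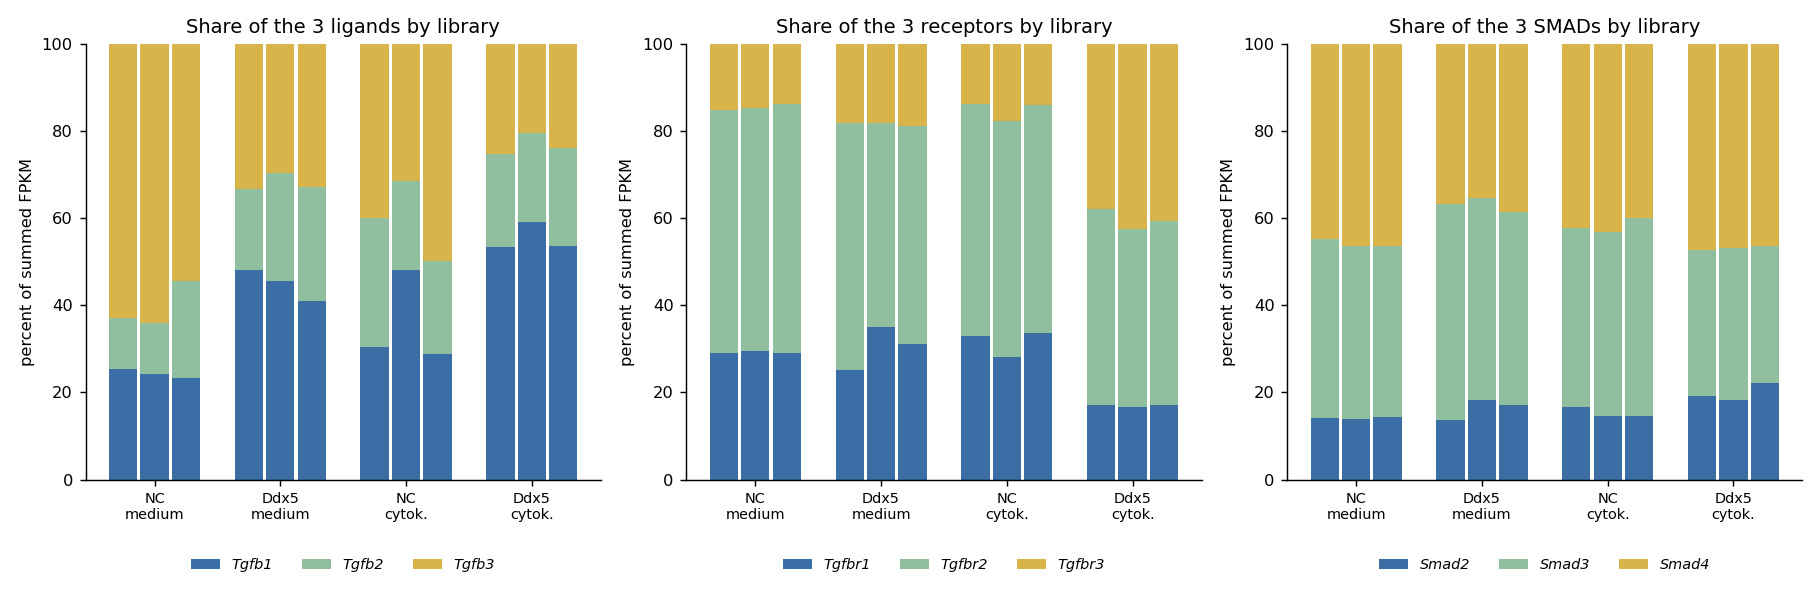
Share of each gene in the summed FPKM (vertical axis, percent) of the 3 ligands, the 3 receptors and the 3 SMADs, with 1 stacked bar for each of the 12 libraries, grouped by hairpin and medium and ordered by replicate. *Tgfb3* holds 54.4% to 64.1% of the ligands in shRNA-NC cells in medium and 20.3% to 25.3% in shRNA-*Ddx5* cells with cytokines, where *Tgfbr3* holds 38.0% to 42.5% of the receptors.

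*Smad4*, the SMAD shared by the TGF-β and BMP branches (gene 17128, chromosome 18), had 16.7, 18.2 and 19.3 FPKM in shRNA-NC and 11.1, 11.1 and 11.96 in shRNA-*Ddx5* cells in medium. With cytokines it had 17.4, 16.5 and 15.8 FPKM in shRNA-NC and 10.8, 11.3 and 9.83 in shRNA-*Ddx5* cells. All shRNA-*Ddx5* libraries lay below all shRNA-NC libraries, and within a line the media overlapped. The knockdown lowered *Smad4* to 0.629 times the control in medium (log2 difference -0.62 ± 0.08, adjusted p = 9.9e-05) and to 0.643 times with cytokines (-0.59 ± 0.08, adjusted p = 0.000137). The 2 effects differed by 0.03 (95% confidence interval -0.22 to 0.28, adjusted p = 0.902), a difference whose sign turned without shRNA-NC replicate 3 of either medium (-0.0145 and -0.00143) or shRNA-*Ddx5* cytokine replicate 2 (-0.00988).

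*Smad3*, a receptor-activated SMAD that binds DNA (gene 17127, chromosome 9 from 63554048 to 63665276), had 15.3, 15.6 and 16.2 FPKM in shRNA-NC and 14.9, 14.4 and 13.7 in shRNA-*Ddx5* cells in medium. With cytokines it had 17.0, 16.3 and 17.9 FPKM in shRNA-NC and 7.64, 8.48 and 6.67 in shRNA-*Ddx5* cells. The last group stood far below the others, which lay close together although no 2 groups overlapped. The knockdown lowered *Smad3* to 0.445 times the control with cytokines (log2 difference -1.07 ± 0.08, adjusted p = 3.64e-06). In medium the difference was -0.12 (adjusted p = 0.252), although the libraries did not overlap, and it passed the threshold only after scaling to summed fragments (-0.22, adjusted p = 0.0455). Cytokines lowered it in shRNA-*Ddx5* cells (-0.84 ± 0.08, adjusted p = 1.91e-05) and moved it by 0.11 in shRNA-NC cells (adjusted p = 0.338). The interaction was -0.95 ± 0.12 (adjusted p = 0.000775), opposite in sign to that of *Tgfbr3*.

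*Smad2*, the other receptor-activated SMAD (gene 17126, chromosome 18), had 5.33, 5.52 and 6.01 FPKM in shRNA-NC and 4.16, 5.72 and 5.30 in shRNA-*Ddx5* cells in medium, and 6.86, 5.57 and 5.75 and 4.42, 4.42 and 4.69 with cytokines. With cytokines the lines did not overlap, and the knockdown lowered *Smad2* to 0.744 times the control (log2 difference -0.35 ± 0.11, adjusted p = 0.0194). This call was lost without shRNA-NC cytokine replicate 1 (-0.27, adjusted p = 0.0703) or shRNA-*Ddx5* cytokine replicate 1 or 2 (both -0.34, adjusted p = 0.0586 and 0.0590). In medium the lines overlapped (-0.13, adjusted p = 0.329), with shRNA-*Ddx5* replicate 1 low as for *Tgfbr1*. The summed FPKM of *Smad2*, *Smad3* and *Smad4* was 39.5 ± 2.10 (SD, n = 3) in shRNA-NC and 30.8 ± 0.497 in shRNA-*Ddx5* cells in medium, and 39.7 ± 1.47 and 22.8 ± 1.53 with cytokines.

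*Tgfbi*, which encodes a secreted matrix protein that binds collagens and integrins (gene 21810, chromosome 13 from 56757399 to 56787172), was the most abundant of the 10 genes in medium. It had 56.4, 55.9 and 63.2 FPKM in shRNA-NC and 101, 88.5 and 89.1 in shRNA-*Ddx5* cells in medium, and 14.6, 18.3 and 19.4 and 41.5, 48.7 and 43.8 with cytokines. No 2 groups overlapped. The knockdown raised it 1.59-fold in medium (log2 difference 0.66 ± 0.11, adjusted p = 0.000607) and 2.56-fold with cytokines (1.31 ± 0.11, adjusted p = 5.68e-06). Cytokines lowered it to 0.298 times the medium mean in shRNA-NC cells (-1.70 ± 0.11, adjusted p = 7.2e-07) and to 0.480 times in shRNA-*Ddx5* cells (-1.04 ± 0.11, adjusted p = 2.9e-05). The interaction was 0.65 ± 0.16 (adjusted p = 0.0268). It missed the threshold without shRNA-*Ddx5* medium replicate 2 or 3 or shRNA-*Ddx5* cytokine replicate 2 or 3 (0.59 to 0.67, adjusted p = 0.0514 to 0.0740), and with the replicate number as a block (adjusted p = 0.0512). After quantile normalization the rise in medium was 0.41 (adjusted p = 0.00899).

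**Figure D3:**
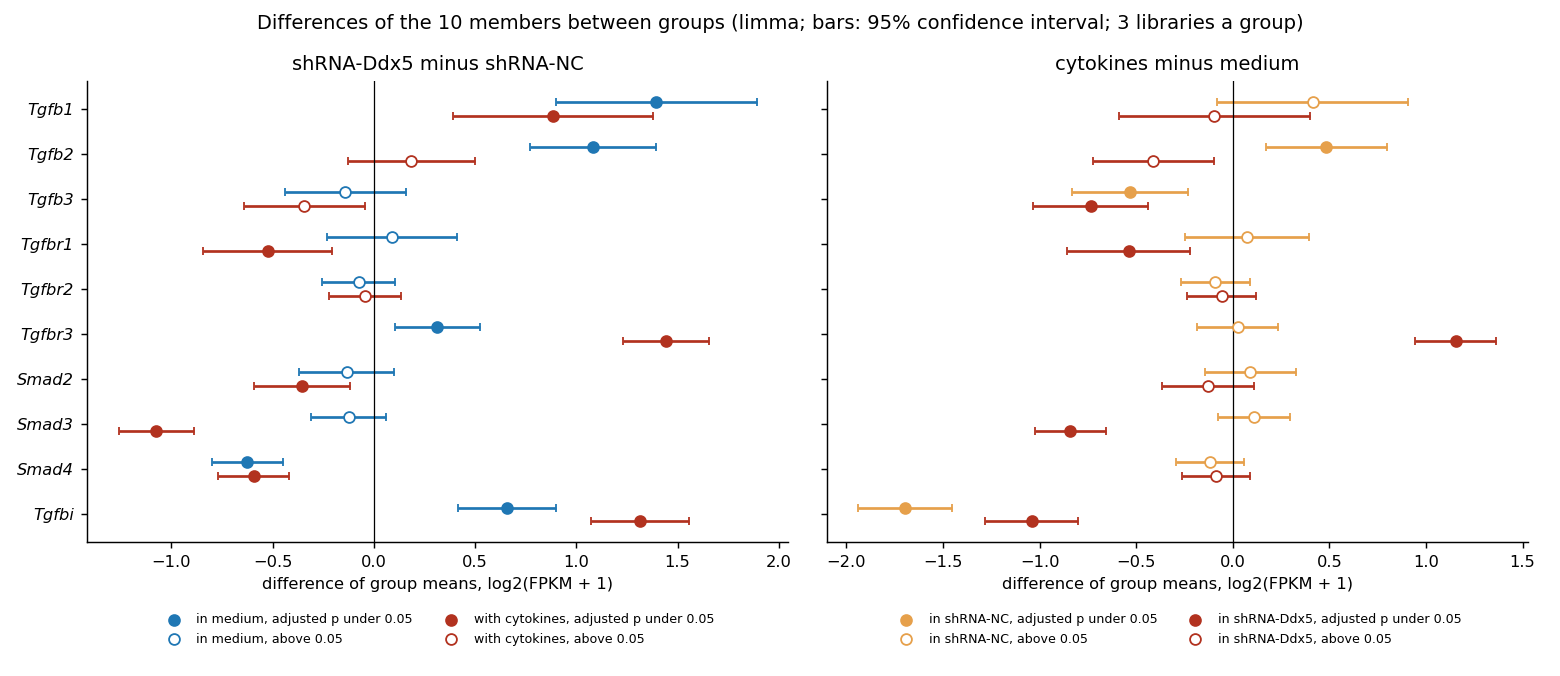
Differences of the 10 genes (horizontal axes, log2(FPKM + 1)) for shRNA-*Ddx5* minus shRNA-NC in each medium (left) and cytokines minus medium in each line (right), with 95% confidence intervals from limma and filled points where the adjusted p was under 0.05. *Tgfb1*, *Tgfbr3* and *Tgfbi* lie to the right and *Smad4* to the left of 0 in both media, and for cytokines the points of *Smad3* (-0.84) and *Tgfbr3* (1.15) are filled in shRNA-*Ddx5* cells and open in shRNA-NC cells.

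Counted over the 10 genes, the knockdown in medium raised 4 (*Tgfb1*, *Tgfb2*, *Tgfbr3* and *Tgfbi*), where 25.3% of all genes tested rose, and lowered 1 (*Smad4*), where 21.7% fell. With cytokines it raised 3 (*Tgfb1*, *Tgfbr3* and *Tgfbi*), against 23.5% of all genes, and lowered 4 (*Tgfbr1*, *Smad2*, *Smad3* and *Smad4*), against 22.1%. In shRNA-NC cells cytokines raised 1 (*Tgfb2*), against 18.6%, and lowered 2 (*Tgfb3* and *Tgfbi*), against 15.2%. In shRNA-*Ddx5* cells they raised 1 (*Tgfbr3*), against 13.5%, and lowered 4 (*Tgfb3*, *Tgfbr1*, *Smad3* and *Tgfbi*), against 13.5%. The knockdown effect was higher with cytokines than in medium for 2 (*Tgfbr3* and *Tgfbi*), against 3.46% of all genes, and lower for 2 (*Tgfb2* and *Smad3*), against 4.75%. No count over the 10 genes was tested against these shares, and a share near the background is no property of the 10. The median log2 difference of the 10 was 0.01 in medium and -0.19 with cytokines for the knockdown, beside 0.03 and 0.01 over all genes tested.

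By overlap alone, the shRNA-*Ddx5* libraries were all above the shRNA-NC libraries for 4 of the 10 genes in medium (28.7% of all genes) and all below for 2 (24.8%), and with cytokines for 4 (31.7%) and 5 (29.9%). The cytokine libraries were all above the medium libraries for 1 gene in shRNA-NC cells (23.7%) and all below for 3 (22.0%), and in shRNA-*Ddx5* cells for 1 (23.3%) and 5 (24.0%). The split of all genes called depended on the scaling between libraries. For the knockdown in medium 3131 genes rose and 2686 fell on the deposited scale, and 2480 rose and 3353 fell after scaling to summed fragments. For cytokines in shRNA-NC cells 2303 rose and 1878 fell, against 1815 and 2368 after quantile normalization and 1850 and 2529 after scaling to summed fragments. For cytokines in shRNA-*Ddx5* cells 1671 rose and 1673 fell, against 1398 and 2183 after quantile normalization.

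Around the ligands, 17 genes were listed under ligand latency and activation, of which 11 were tested. The knockdown in medium raised 1 and lowered 2 (median log2 difference 0.16, beside 0.03 over all genes), and with cytokines it raised 6 and lowered 0 (0.47, beside 0.01), and whether the 2 counts differ was not tested. Over all genes 25.3% rose and 21.7% fell in medium, and 23.5% rose and 22.1% fell with cytokines. By gene, the interaction was called for *Ltbp2* alone of the 11 (3.46% of all genes were called upward and 4.75% downward). The count of 6 was not taken again without single libraries. In the shRNA-NC cytokine libraries the lowest, middle and highest values were 4.25, 8.53 and 9.23 FPKM for *Ltbp2*. They were 8.99, 14.2 and 15.1 for *Ltbp3* and 4.35, 7.62 and 7.65 for *Ltbp4*. For *Fbn1* they were 14.1, 17.6 and 19.2, and for *Itgb1* 96.2, 101 and 118. *Thbs1*, thrombospondin-1, which can activate latent TGF-β, was at 95.4 FPKM in shRNA-NC and 305 in shRNA-*Ddx5* cells with cytokines (log2 difference 1.77, adjusted p = 0.000253). The shRNA-NC libraries with cytokines ran from 54.3 to 141 FPKM. In medium *Thbs1* was higher in both lines, at 327 and 488 FPKM (0.57, adjusted p = 0.0916). Cytokines moved it by -1.86 in shRNA-NC cells (adjusted p = 0.000287) and by -0.67 in shRNA-*Ddx5* cells (adjusted p = 0.0799). *Itgb1*, the integrin β1 subunit, rose from 93.0 to 160 FPKM in medium (0.78, adjusted p = 5.69e-05, and 0.51 after quantile normalization). It also rose with cytokines, from 105 to 147 FPKM (0.49, adjusted p = 0.00122). *Itgb5*, the β5 subunit, fell in medium from 89.4 to 67.2 (-0.41, adjusted p = 0.009, and -0.68 after quantile normalization). *Ltbp2*, a matrix protein of the latent TGF-β binding protein family, fell in medium from 3.10 to 1.73 FPKM (-0.59, adjusted p = 0.0309) and rose with cytokines from 7.34 to 10.6 (0.53, adjusted p = 0.0472). The fall of *Ltbp2* was lost without any one of the 6 medium libraries (adjusted p = 0.0507 to 0.0963), without a filter (0.0742) and after quantile normalization (0.0509). Its rise was lost without any one library but shRNA-NC cytokine replicates 2 and 3 (adjusted p = 0.0532 to 0.132), with the replicate block (0.0640), a pseudocount of 0.1 (0.0553), no filter (0.107), scaling to summed fragments (0.0883) or only the libraries compared in the fit (0.102), and was 0.23 without shRNA-NC cytokine replicate 1. Cytokines raised 3 and lowered 3 of the 11 in shRNA-NC cells (18.6% and 15.2% of all genes tested). They raised 3 and lowered 2 in shRNA-*Ddx5* cells (13.5% of all genes each way).

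Of 17 receptor partners and genes of receptor turnover 15 were tested, and the knockdown raised 4 and lowered 5 in medium (median -0.04, beside 0.03 over all genes) and raised 2 and lowered 5 with cytokines (-0.03, beside 0.01). The shares of all genes were those given for the latency genes. The activin type II receptor gene *Acvr2b* fell in both media, from 2.43 to 0.616 and from 2.09 to 0.468 FPKM (log2 difference -1.08 and -1.07, adjusted p = 2.58e-06 and 2.65e-06; -1.82 and -1.95 with a pseudocount of 0.1, and -1.98 and -2.15 with voom). *Pmepa1*, a TGF-β-induced inhibitor that holds back receptor-activated SMADs, fell with cytokines from 18.6 to 5.53 FPKM (-1.58, adjusted p = 2.07e-07). Its fall in medium, from 18.5 to 10.4 FPKM, was called as well. The activin type I receptor gene *Acvr1b* fell in medium from 7.60 to 3.20 FPKM (-1.03, adjusted p = 2.58e-06) and rose with cytokines from 6.34 to 8.34 (0.35, adjusted p = 0.00347). *Bambi*, a decoy receptor (0.910 to 1.77 FPKM, 0.54, and 0.90 with a pseudocount of 0.1), and *Fkbp1a*, which binds the type I receptor (126 to 183 FPKM, 0.53, and 0.25 after quantile normalization), rose in medium. *Eng*, a co-receptor, rose with cytokines from 0.547 to 1.17 FPKM (0.49, adjusted p = 0.0281; 1.00 with a pseudocount of 0.1), a call lost without shRNA-NC cytokine replicate 1 or 3 or any shRNA-*Ddx5* cytokine library (adjusted p = 0.0525 to 0.0904) and without a filter (0.0633). Cytokines raised 4 and lowered 2 of the 15 in shRNA-NC cells (18.6% and 15.2% of all genes tested). They raised 3 and lowered 4 in shRNA-*Ddx5* cells (13.5% of all genes each way).

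Of the 12 SMAD co-factors and inhibitory SMADs, all tested, the knockdown raised 2 and lowered 8 in medium (median -0.45, beside 0.03 over all genes) and raised 2 and lowered 7 with cytokines (-0.40, beside 0.01). Of all genes tested 25.3% rose and 21.7% fell in medium, and 23.5% rose and 22.1% fell with cytokines. The co-repressors *Ski*, *Skil* and *Tgif1* and the acetyltransferase gene *Crebbp*, a co-activator, were among the falls in both media, so that genes of opposite roles fell alike. *Skil* fell most in medium, from 12.7 to 4.64 FPKM (-1.30, adjusted p = 1.82e-05), followed by *Crebbp*, from 11.7 to 5.06 (-1.06, adjusted p = 2.25e-05). With cytokines *Tgif1* fell from 28.4 to 10.7 FPKM (-1.31, adjusted p = 2.34e-05) and *Ski* from 13.4 to 6.35 (-0.97, adjusted p = 2.89e-06). The rises were those of *Smad6*, an inhibitor chiefly of the BMP branch (19.7 to 39.5 FPKM in medium, 0.98, and 6.45 to 26.4 with cytokines, 1.91), and of *Runx2*, a skeletal transcription factor that works with SMADs (10.6 to 17.0, 0.63, and 5.12 to 6.32, 0.27). The *Runx2* call with cytokines (adjusted p = 0.0485) was lost without shRNA-NC medium replicate 2, shRNA-*Ddx5* medium replicate 2 or 3, shRNA-NC cytokine replicate 1 or 2, or any shRNA-*Ddx5* cytokine library (adjusted p = 0.0505 to 0.164), and the rise was 0.16 without shRNA-NC cytokine replicate 1. It was also lost without a filter (adjusted p = 0.0791), with 1 FPKM required in every library (0.0510), after scaling to summed fragments (0.136), by eBayes without trend (0.0518) and with only the libraries compared in the fit (0.0675). Of the BMP-branch SMADs *Smad1*, *Smad5* and *Smad9*, none was called in medium, and *Smad9* rose with cytokines from 2.99 to 5.46 FPKM (0.72, adjusted p = 0.00262). Cytokines raised 2 and lowered 6 of the 12 in shRNA-NC cells (18.6% and 15.2% of all genes tested). They raised 2 and lowered 4 in shRNA-*Ddx5* cells (13.5% of all genes each way).

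Of 20 known transcriptional targets of TGF-β 18 were tested. The knockdown raised 11 and lowered 2 in medium (median 0.62, beside 0.03 over all genes) and raised 13 and lowered 3 with cytokines (0.89, beside 0.01), where of all genes tested 25.3% rose and 21.7% fell in medium and 23.5% and 22.1% with cytokines. Earlier results of these data were known when the list was drawn up, among them changes of *Col1a1*, *Col1a2*, *Acta2* and *Fn1*. The list is therefore no independent evidence of its direction. Without those named genes the counts were 7 raised and 2 lowered of 14 in medium and 9 and 3 with cytokines. These counts are no independent evidence either. The counts also depend on how genes were divided between lists. *Pmepa1*, described above as TGF-β-induced, was counted with the receptor genes and fell in both media. *Tgfbi*, counted among the 10 genes, rose in both. *Acta2*, smooth muscle α-actin, rose in medium from 0.546 to 11.7 FPKM (log2 difference 3.04, adjusted p = 4.03e-06) and under cytokines from 1.19 to 18.5 (3.26, adjusted p = 2.51e-06). The shRNA-NC libraries with cytokines ran from 0.469 to 2.45 FPKM, and the latter difference was 3.03 to 3.64 leaving out single libraries. *Col1a1*, type I collagen, rose from 19.7 to 111 FPKM (2.45, adjusted p = 4.82e-05) and from 12.1 to 96.0 (3.00, adjusted p = 1.2e-05). Other targets fell: *Lox*, the collagen cross-linking lysyl oxidase, in medium from 233 to 106 FPKM (-1.13, adjusted p = 2.13e-05), and *Cdkn1a*, the cell cycle inhibitor p21, from 2.31 to 1.45 FPKM (-0.43, and -0.68 with voom) in medium and from 7.10 to 1.73 with cytokines (-1.58, adjusted p = 1.08e-06). The fall of *Lox* with cytokines, from 157 to 114 FPKM, was called as well. *Ccn2*, connective tissue growth factor, fell with cytokines from 10.9 to 6.27 FPKM (-0.71, adjusted p = 0.000176). Cytokines raised 5 and lowered 7 of the 18 in shRNA-NC cells (18.6% and 15.2% of all genes tested). They raised 5 and lowered 4 in shRNA-*Ddx5* cells (13.5% of all genes each way).

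**Figure D4:**
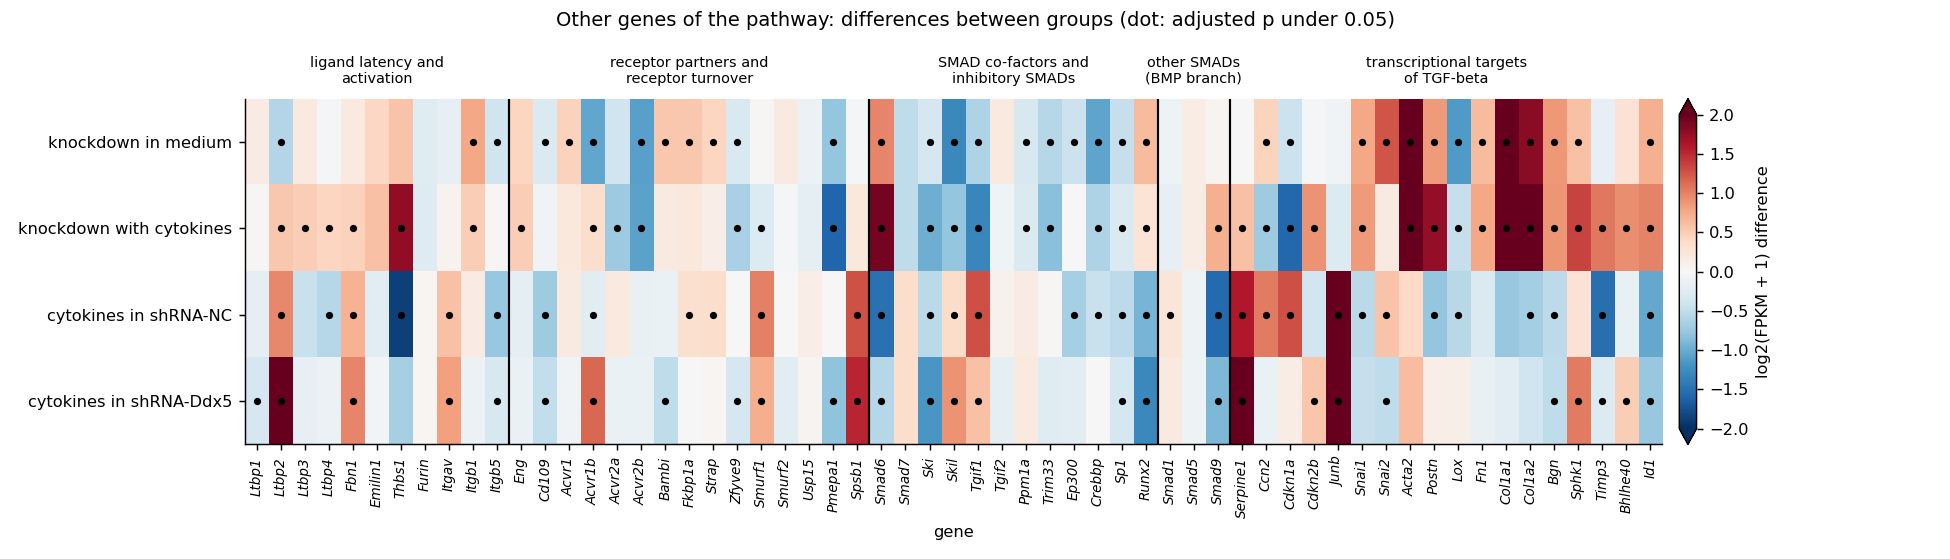
Heat map of the log2(FPKM + 1) differences (colour, limited to -2 to 2) of the tested genes of the 5 pathway lists (horizontal axis) in the knockdown and cytokine comparisons (vertical axis), with a dot where the adjusted p was under 0.05. The SMAD co-factors are mostly blue in both knockdown rows, with 8 and 7 of 12 lowered, and the targets mostly red, with 11 and 13 of 18 raised.

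The genes whose log2 values over the 12 libraries were most like those of each member are a description, since the libraries share their group and their hairpin. *Tgfb1* was closest to *Pomgnt1* (Pearson r = 0.977, n = 12) and *Clu* (0.968), *Tgfb2* to *Atp6v0a2* (0.967) and *Sdhaf2* (0.959), and *Tgfb3* to *Agbl5* (0.988) and *Flnc* (0.973). *Tgfbr3* was closest to *Dhrs9* (0.990) and to *Il1rn* (0.987), which encodes the IL-1 receptor antagonist. *Il1rn* was at 0.0195 and 0.142 FPKM in shRNA-NC and shRNA-*Ddx5* cells in medium and at 0.0720 and 1.24 with cytokines. *Tgfbr1* was closest to *Spast* (0.919) and *Tcf12* (0.914), and *Tgfbr2* to *Pik3c3* (0.875) and *Slc46a3* (0.872), the lowest values of the 10. *Smad2* was closest to *Smim15* (0.981) and *Kpna4* (0.979), *Smad3* to *Ptprk* (0.963) and *Plin2* (0.960), *Smad4* to *Fam120b* (0.985) and *Tmem98* (0.985), and *Tgfbi* to *Dnase1l1* (0.989) and *Zcchc24* (0.986). *Tmem98* fell further than *Smad4*, to 1.03 FPKM from 13.4 in medium, and to 0.433 from 7.30 with cytokines.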

How the data were processed

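RNA was sequenced from 12 ATDC5 libraries, 3 per group, from 1 µg of RNA read over 150 nt at both ends. The authors counted fragments per gene and deposited FPKM. The submitters' notes name HISAT2 2.0.5, featureCounts 1.5.0-p3 and mm10, but the table's coordinates follow GRCm39. Strandedness was not given in the sources used here. The 8 genes that overlap the members lie on the opposite strand, at no more than 0.411 FPKM. FPKM multiplied by length was a whole multiple (within 0.01) of 1 step per library, which gave the fragments; the denominators were 0.957 to 1.08 times their sums, so the values hold a scaling between libraries. Intervals cover the spread between libraries of 1 line per hairpin.

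Log2(FPKM + 1) values, which understate changes of low genes, were fitted with limma 3.58.1 in R 4.3.3 (4 group means, eBayes with trend) over the 12368 genes that reached 1 FPKM in 3 or more libraries. P-values were adjusted by Benjamini-Hochberg over all of them, and 0.05 was the threshold. The model was run on simulated data with a fixed dispersion, few changed genes and no outlying library, so that run is no test of the calls made here. The named genes were all 10 members, per pathway list and knockdown comparison the 2 largest rises and falls past the threshold without overlap, and the 2 genes most like each member. Members and lists were chosen with earlier results of these data known. The settings varied were the pseudocount (0.1), the filter (none, or 1 FPKM in every library), scaling (quantile normalization, or scaling to summed fragments), eBayes without trend, voom weights, only the libraries of the contrast, a replicate block and each library left out.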

Additional observations from a re-analysis of the deposited data

Results flagged for a closer look

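These genes were singled out because the knockdown effect with cytokines differed from that in medium by the interaction test of limma at an adjusted p under 0.05. The difference was -0.90 on the log2 scale for *Tgfb2*, 1.13 for *Tgfbr3*, -0.95 for *Smad3* and 0.65 for *Tgfbi*. Among the named genes of the pathway lists it was 1.38 for *Acvr1b*, -1.16 for *Ccn2*, -1.14 for *Cdkn1a*, 0.68 for *Lox*, 1.12 for *Ltbp2*, -0.81 for *Pmepa1*, -0.63 for *Ski* and 0.93 for *Smad6*. *Acvr1b* and *Ltbp2* fell with the knockdown in medium and rose with it in cytokines, and *Ccn2* rose in medium (log2 difference 0.45, adjusted p = 0.00359) and fell with cytokines. Both knockdown calls of *Ltbp2* were lost without many of the single libraries and under other settings, as given above.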

How the results depend on the processing

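Of 1040 values of the 10 genes recomputed, 993 kept their direction and their side of the threshold, 26 lost the call, 13 gained one and 8 changed sign. The direction could not change under the filters, eBayes without trend, the replicate block or only the libraries of the contrast. Nor could it when the library left out lay outside the groups compared. The 993 thus include values whose direction was fixed in advance and of which only the call could move. All 8 sign changes concern differences that were not called: *Tgfbr3* with cytokines in shRNA-NC cells (-0.0401 after scaling to summed fragments, and -0.0537 to 0.0701 leaving out single libraries), *Tgfbr1* after knockdown in medium (-0.0341 to 0.285), and the interactions of *Smad4* (-0.0145 to 0.0846) and *Tgfbr2* (-0.0337 to 0.0760); the cause was not tested. The number of the 10 genes with a called interaction ranged from 2 to 5 leaving out single libraries, and was lowest without replicate 3 of either shRNA-*Ddx5* group. Over all genes this count was 1016, and 559 to 1123 leaving out single libraries, lowest without shRNA-*Ddx5* cytokine replicate 3. With the replicate block 3 of the 10 interactions were called, that of *Tgfbi* being lost (0.65, adjusted p = 0.0512), and over all genes 687; the numbers do not pair the libraries, whose deviations from the group means correlated at -0.0450 on average for the same number and at 0.0216 for others. The block changed no other call of the 10 genes. Among the knockdown calls of the named list genes it ended the rise of *Ltbp2* with cytokines (adjusted p = 0.0640) and no other, and the interactions of list genes were not refitted under any alternative. Ligands at a few FPKM rest on as few as 95 fragments (*Tgfb1*), which limits their precision.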
